A study of Mus musculus with 23 samples.

Results

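T cell receptor (TCR) transcripts of tumours treated with both trametinib and BGB-283 were compared between D11 and D4. All TRA and TRB entries of the 3 combination D11 and the 3 combination D4 libraries were taken, 6 of the 23 libraries in the series. An entry is a clonotype, that is a V segment, a J segment and a CDR3 amino acid sequence with its count in each library. Of 64436 clonotypes analysed, 35425 were above 0 in at least 1 of the 6 libraries. The other 17 libraries, from trametinib alone, BGB-283 alone and no drug, also at D11 and D4, are used where the change with time is set against theirs.

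The study asks about resistance that tumours acquire to MEK inhibition and about the T cell response to them. All libraries come from a syngeneic mouse model of melanoma made from the cell line NIL, which carries Nras Q61R and had been exposed to ultraviolet radiation to add mutations. Trametinib inhibits the kinase MEK, and BGB-283 inhibits RAF kinases, which act upstream of MEK. The starting point of the day count, the strain and age of the mice, and whether the 3 libraries of a day came from separate mice are not stated in the labels. The p-values below therefore measure only the spread between these libraries. The tissue is labelled as the melanoma cell line, although TCR transcripts are made by T cells. No marker gene of any cell type is in the table, so the labelled tissue could not be checked. As RNA was taken in bulk, more cells of a clone and more TCR RNA per cell cannot be told apart.

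Each T cell joins a V and a J segment, with a D segment between them in the beta chain, and the joint forms the CDR3 loop that touches the peptide on a major histocompatibility molecule. Cells that share a rearrangement usually descend from the same cell, and a T cell that meets its antigen divides, so its rearrangement takes a growing share of the TCR transcripts. A repertoire is called focused when few clonotypes hold most of the counts. The same amino acid CDR3 can also arise independently in different mice when it needs few added bases at the joint, and such clonotypes are called public.

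The largest beta clonotype of each library is given here by its deposited CDR3, since these are the sequences that measures of focusing count first, and each was the largest in 1 library alone. Capitals are amino acids from the first to the last residue of the CDR3.
D11 replicate 1, TRBV13-2 with TRBJ2-3: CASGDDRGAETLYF
D11 replicate 2, TRBV3 with TRBJ2-7: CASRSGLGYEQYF
D11 replicate 3, TRBV19 with TRBJ1-1: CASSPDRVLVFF
D4 replicate 1, TRBV16 with TRBJ2-7: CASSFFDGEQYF
D4 replicate 2, TRBV12-1 with TRBJ2-7: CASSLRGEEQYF
D4 replicate 3, TRBV17 with TRBJ2-4: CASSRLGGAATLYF

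The largest alpha clonotypes likewise differed between all 6 libraries. The largest of D11 replicates 1 and 2 both use TRAJ48, and the largest of D11 replicates 2 and 3 both use a V segment of the TRAV6 family.
D11 replicate 1, TRAV12D-2 with TRAJ48: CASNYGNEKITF
D11 replicate 2, TRAV6-6V6D-6 with TRAJ48: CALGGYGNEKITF
D11 replicate 3, TRAV6D-5V6N-5 with TRAJ39: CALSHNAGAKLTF
D4 replicate 2, TRAV9D-1 with TRAJ40: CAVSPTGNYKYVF
D4 replicate 3, TRAV8-1V8D-1 with TRAJ49: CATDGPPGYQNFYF
The largest of D4 replicate 1 joins TRAV14-3 with TRAJ27 in a CDR3 of 13 residues and is given by its segments only.

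Depth differed between the libraries. TRB counts were 151348, 320420 and 185978 in the D11 libraries (replicates 1, 2 and 3, an order kept below), against 235028, 274191 and 285111 in the D4 libraries. TRA counts were 143391, 393802 and 192054 at D11, against 421299, 524431 and 416714 at D4. All D11 libraries thus had fewer TRA counts than any D4 library (0.490-fold, p = 0.1, adjusted p = 0.533, exact permutation test), while TRB counts overlapped. The lowest value above 0 in the table is 3, and a 0 means listed at 0. Of the TRB values from 3 to 20, those at 20 were 9.56%, 4.67% and 7.66% at D11, against 2.69%, 3.19% and 4.39% at D4. In TRA they were 7.74%, 2.98% and 4.95% at D11, against 2.98%, 3.06% and 5.04% at D4. Whether counts are reads summed over molecules of up to 20 reads was not tested. D11 replicate 3 stood apart from the other 5 libraries. It had the fewest clonotypes and the highest share in its 10 largest clonotypes in both chains, with more counts than D11 replicate 1.

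The first question was whether the repertoire under both drugs was more focused at D11 than at D4. In the beta chain the largest clonotype held more of the counts on average at D11, and fewer distinct clonotypes were listed, but the days overlapped in the largest clonotype, the 10 largest, clonality and the number of clonotypes, and no difference passed the test. With 3 against 3 libraries the exact permutation test cannot give a two-sided p under 0.1, and p-values were adjusted over 16 tests, 8 for each chain. Under this limit none of the 16 passed, and the lowest adjusted p was 0.533.

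The largest TRB clonotype took 13.8%, 21.6% and 24.1% of TRB counts in the D11 libraries, against 15.0%, 8.37% and 10.1% in the D4 libraries. Replicates 2 and 3 of D11 lay above every D4 library, and D11 replicate 1 lay below D4 replicate 1. The means were 19.8% ± 5.35 at D11 and 11.1% ± 3.43 at D4 (SD, n = 3 each), a difference of 8.69 points of percent (exact permutation test, p = 0.2, adjusted p = 0.533).

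The 10 largest TRB clonotypes together took 46.0%, 52.9% and 67.9% at D11, against 49.6%, 31.0% and 44.9% at D4. The difference of the means was 13.8 points (p = 0.2, adjusted p = 0.533, exact permutation test). Without D11 replicate 3 the difference was 7.66 points, and without D4 replicate 2 it was 8.38 points. Counting down from the largest, 15, 7 and 4 clonotypes were needed to reach 50% of TRB counts at D11, against 11, 37 and 17 at D4.

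The number of distinct TRB clonotypes was 2256, 4328 and 1074 at D11, against 3584, 5172 and 3718 at D4. The D11 libraries spread over a wider range than the D4 libraries, and D11 replicate 2 held more than 2 of the D4 libraries. Every library was then thinned to 32534 TRB counts, the lowest of all 23, to put them at equal counts, which are not equal numbers of molecules. This left 2020, 3129 and 931 clonotypes at D11, against 2574, 3816 and 2877 at D4, a 0.593-fold difference of geometric means (p = 0.3, adjusted p = 0.533, exact permutation test). On the log2 scale it was -0.75 with all libraries, -0.28 without D11 replicate 3 and -1.15 without D11 replicate 2. Over the other ways of counting and thinning tried, this log2 difference ran from -0.90 to -0.43.

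Clonality is an index that approaches 1 as few clonotypes dominate. For TRB it was 0.309, 0.389 and 0.437 at D11, against 0.375, 0.256 and 0.310 at D4 (difference 0.0648, p = 0.3, adjusted p = 0.533, exact permutation test). The difference was 0.0356 without D11 replicate 3 and 0.0361 without D4 replicate 2, and it was 0.0996 without D11 replicate 1.

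Another index of focusing, the square root of the sum of squared shares, weights the largest clonotypes more and was tried as an alternative. For TRB it was 0.208, 0.258 and 0.296 at D11, against 0.205, 0.127 and 0.176 at D4 (difference 0.0846, p = 0.1, adjusted p = 0.4, exact permutation test). For TRA it was 0.189, 0.192 and 0.328 at D11, against 0.179, 0.150 and 0.154 at D4 (difference 0.0755, p = 0.1, adjusted p = 0.4, exact permutation test). By this index the days did not overlap in either chain, although D11 replicate 1 lay just above D4 replicate 1 in TRB.

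**Figure D1:**
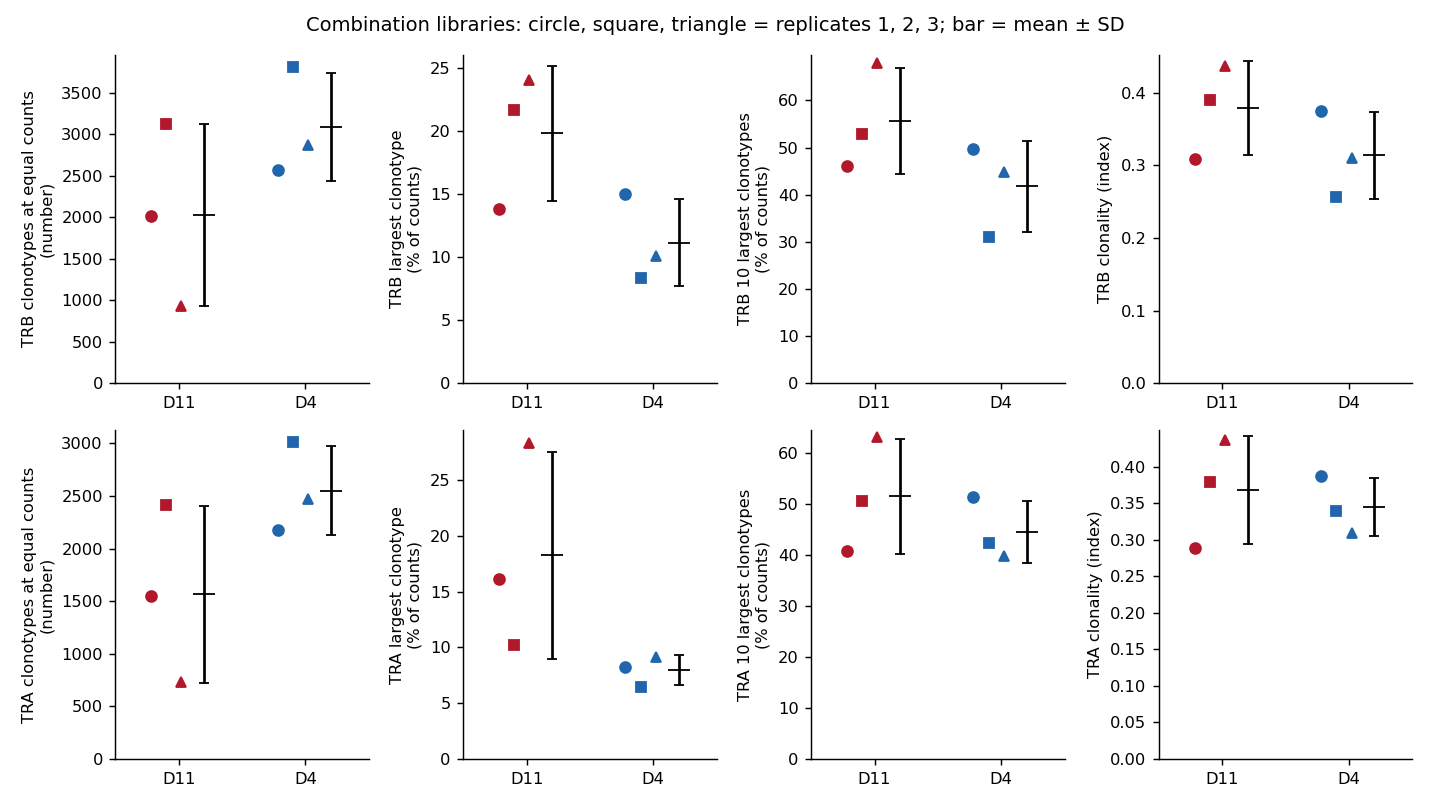
Clonotype number at equal counts, share of the largest clonotype, share of the 10 largest clonotypes (% of chain counts) and clonality (index) in the combination libraries, D11 (red) left of D4 (blue), TRB above and TRA below. Points are libraries, with the mean ± SD beside them (n = 3 each); of the measures plotted only the TRA largest clonotype separates the days, and the D11 triangle (replicate 3) has the fewest clonotypes.

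In the alpha chain, unlike the beta chain, the largest clonotype separated the days. The largest TRA clonotype took 16.2%, 10.2% and 28.4% of TRA counts at D11, against 8.25%, 6.47% and 9.11% at D4. Every D11 library lay above every D4 library, which is as far as this test can reach (difference 10.3 points, p = 0.1, adjusted p = 0.533, exact permutation test). Without D11 replicate 3 the difference was 5.25 points. The lowest D11 value and the highest D4 value were only about a point apart, at 10.2% and 9.11%.

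The days overlapped in the 10 largest alpha clonotypes, in alpha clonality and in the number of alpha clonotypes. The 10 largest TRA clonotypes took 40.7%, 50.6% and 63.3% at D11, against 51.4%, 42.5% and 39.8% at D4 (difference 6.99 points, p = 0.5, adjusted p = 0.667, exact permutation test). The difference was 1.13 points without D11 replicate 3, 4.59 without D4 replicate 3 and 12.4 without D11 replicate 1. TRA clonality was 0.289, 0.379 and 0.436 at D11, against 0.387, 0.339 and 0.309 at D4, and its difference of 0.0231 turned to -0.0110 without D11 replicate 3. Thinned to 37504 TRA counts, 1549, 2416 and 733 clonotypes were left at D11, against 2173, 3011 and 2474 at D4 (0.553-fold, p = 0.2, adjusted p = 0.533, exact permutation test). On the log2 scale that is -0.85 with all libraries and -0.39 without D11 replicate 3. Over the other ways of counting and thinning tried, this log2 difference ran from -1.05 to -0.27.

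The curves of summed share by clonotype rank show where the libraries part. The curves of D11 replicates 1 and 2 crossed some of those of D4 as more clonotypes were added. In TRB both stayed above D4 replicate 2 at every rank plotted, as did D11 replicate 2 in TRA. The curve of D11 replicate 3 stayed above the other 5 from its first to its last point in both chains. Clonotypes of 1% or more numbered 10, 8 and 10 in TRB at D11, against 16, 17 and 10 at D4. They held 46.0%, 51.4% and 67.9% of TRB counts at D11, against 57.2%, 40.3% and 44.9% at D4. The D11 libraries thus had no more such clonotypes than the D4 libraries did. In TRA they numbered 15, 14 and 12 at D11, against 15, 18 and 17 at D4. Clonotypes under 0.01% held 5.06%, 13.1% and 2.02% of TRB counts at D11, against 9.24%, 12.9% and 9.37% at D4.

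**Figure D2:**
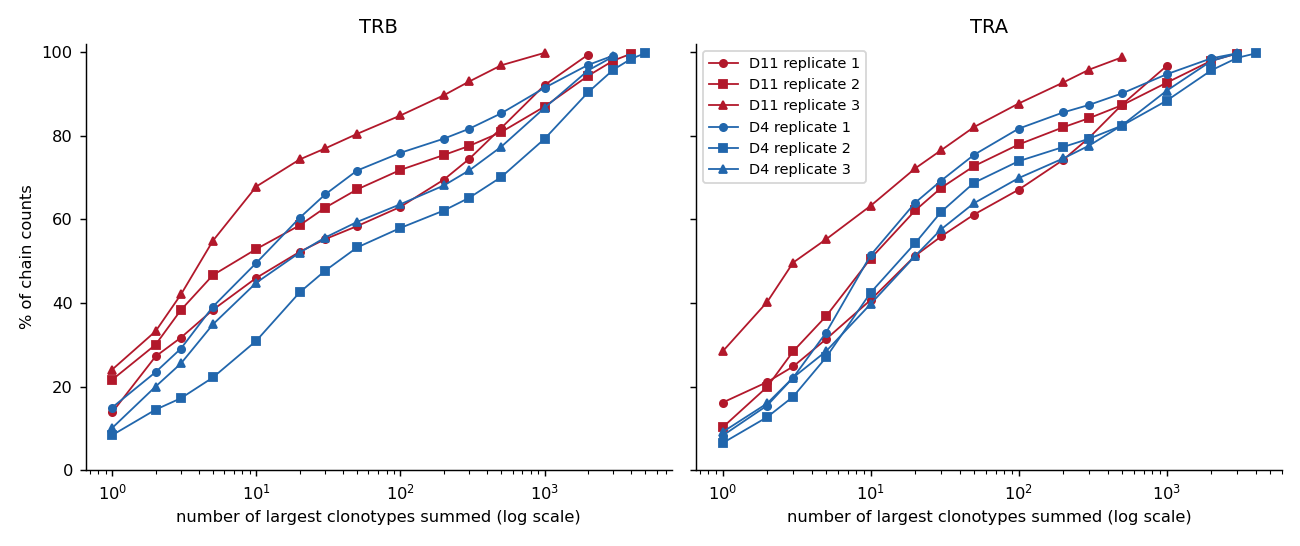
Percent of chain counts held by the largest clonotypes, summed from the largest downwards (x axis, log scale), in each D11 (red) and D4 (blue) combination library, TRB left and TRA right. D11 replicate 3 (red triangles) starts at 24.1% in TRB and 28.4% in TRA and lies above the other libraries throughout.

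The change with time under both drugs was next set against the change under each other treatment. Day labels were permuted within each treatment, which allows p-values down to 0.005, and adjusted over 24 differences. For the 10 largest TRB clonotypes, D11 minus D4 was 13.8 points of TRB counts under both drugs, -14.3 under trametinib, 4.46 under BGB-283 and -8.89 in control. The combination change exceeded that of trametinib by 28.1 points (p = 0.01, adjusted p = 0.24, exact permutation test) and that of control by 22.7 points (p = 0.045, adjusted p = 0.27, exact permutation test). It exceeded that of BGB-283 by 9.34 points (p = 0.5, adjusted p = 0.667, exact permutation test), or by 3.20 points without D11 replicate 3, 3.92 without D4 replicate 2 and 14.1 without D11 replicate 1. None of the 3 passed after adjustment.

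The libraries behind these changes were as follows for trametinib, where the 10 largest TRB clonotypes held 29.5%, 18.6% and 19.7% at D11, against 35.0%, 39.4% and 36.4% at D4. All 3 trametinib D11 libraries lay below all 3 of its D4 libraries, and below all 6 combination libraries. In BGB-283 libraries the values were 50.2%, 43.6% and 63.4% at D11, against 34.0%, 62.2% and 47.7% at D4. In the 2 control D11 libraries they were 45.1% and 45.7%, against 46.2%, 57.7% and 59.0% at D4.

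Other measures of focusing also changed in opposite directions under both drugs and under trametinib, without passing after adjustment. TRB clonality changed by 0.0648 under both drugs and by -0.0914 under trametinib (difference 0.156, p = 0.04, adjusted p = 0.27, exact permutation test). In TRA the 10 largest clonotypes changed by 6.99 points under both drugs and by -13.3 points under trametinib (difference 20.3 points, p = 0.035, adjusted p = 0.27, exact permutation test). Across the alternatives of processing and left-out libraries, the lowest adjusted p for a difference from trametinib was 0.06, in both chains with the index of squared shares in place of clonality. Against BGB-283, with the main processing and all libraries, the lowest p was 0.38, for TRA clonotypes at equal counts (adjusted p = 0.57, exact permutation test). Across the same alternatives the lowest adjusted p against BGB-283 was 0.223, for TRB CDR3 length with a library left out (exact permutation test). With all libraries kept it was 0.388, for TRB clonality (exact permutation test). These values do not show that the changes under both drugs and under BGB-283 alone were alike. Leaving out D11 replicate 3 turned the sign of the difference from BGB-283 in TRA clonality and in the share of the 10 largest TRA clonotypes (-2.28 points).

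**Figure D3:**
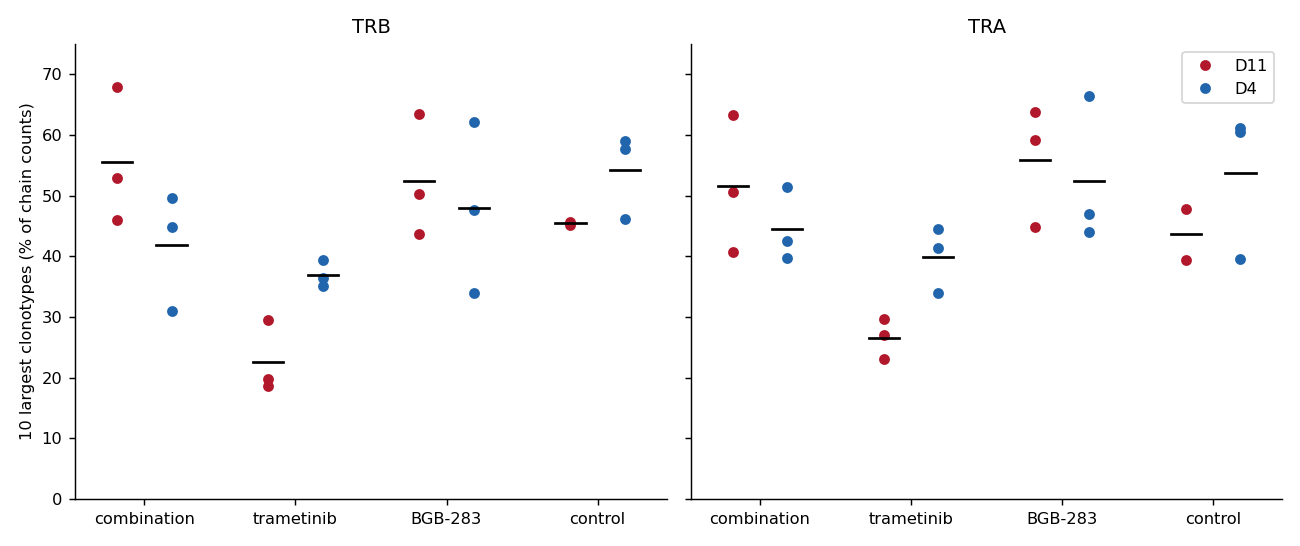
Share of the 10 largest clonotypes (% of chain counts, y axis) in every library of the 4 treatments, D11 (red) left of D4 (blue), TRB left and TRA right, with the mean as a line. Combination libraries lie higher at D11 on average (55.6% against 41.8% in TRB), and all trametinib D11 libraries lie below the trametinib D4 libraries.

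The next question was which clonotypes were found at both times. In all, 237 TRB clonotypes were listed in at least 1 D11 and at least 1 D4 library, 3.12% of the 7597 listed at D11 and 1.92% of the 12328 listed at D4. In TRA there were 553, which is 9.62% of the 5749 at D11 and 5.25% of the 10541 at D4. Most clonotypes of either chain were listed in a single combination library, 97.9% in TRB and 94.1% in TRA. The same shares in the other treatments were 1.38% of D11 and 1.67% of D4 TRB clonotypes for trametinib, 2.04% and 1.55% for BGB-283, and 0.861% and 0.687% for control. Over all its libraries, each of these treatments listed fewer TRB clonotypes on either day than the combination did, for example 4622 and 3833 for trametinib at D11 and D4. The differences between these shares were not tested.

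By medians, the number of clonotypes shared between days lay between the numbers shared within D11 and within D4. After thinning the 6 libraries to equal counts, a D11 and a D4 library shared a median of 18.7 TRB clonotypes over 9 pairs, 2 D11 libraries shared a median of 17.8 over 3 pairs, and 2 D4 libraries shared 54.2 over 3 pairs. In TRA the medians were 75.6 between days, 41.4 within D11 and 177 within D4. The TRB pair that shared most was nevertheless one between days, D11 replicate 2 with D4 replicate 2, at 64.9 against at most 58.7 for a pair of D4 libraries.

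A clonotype found at both times is by definition in at least 2 libraries, so it was set beside clonotypes in 2 or more libraries of a single day. Of the 237 TRB clonotypes, 29.1% were also listed in libraries of other treatments, against 27.3% of the 172 TRB clonotypes in 2 or more libraries of 1 day and 3.66% of all 19451 of 1 day. In TRA the shares were 47.6% of 553, against 37.8% of 373 and 8.21%. Among TRA clonotypes in exactly 2 libraries they were 38.3% of 412 for those of both days, against 36.1% of 352 for those of 1 day. The shares thus lay close together once the number of libraries was matched, and they carry no test.

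CDR3 loops of the clonotypes found at both times were compared in the same way. Their mean length was 13.54 residues in TRB, against 13.5 for clonotypes in 2 or more libraries of 1 day and 13.99 for those of 1 library. In TRA it was 13.38, against 13.37 and 13.6. Within each library, averaged per clonotype, the TRB clonotypes found at both times minus those of a single day differed by -0.473, -0.483 and -0.0976 residues in the D11 libraries, against -0.526, -0.401 and -0.453 in the D4 libraries. In TRA the differences were -0.145, -0.153 and -0.138 at D11, against -0.184, -0.152 and -0.273 at D4. They were below 0 in all 6 libraries in both chains, but nearly all single-day clonotypes are in 1 library, so these differences also set clonotypes of several libraries beside those of 1. The median count of a both-times TRB clonotype was 20, 23 and 49 at D11, against 12, 19.5 and 19 at D4. For single-day clonotypes it was 18, 14 and 20 at D11, against 9, 13 and 18 at D4.

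**Figure D4:**
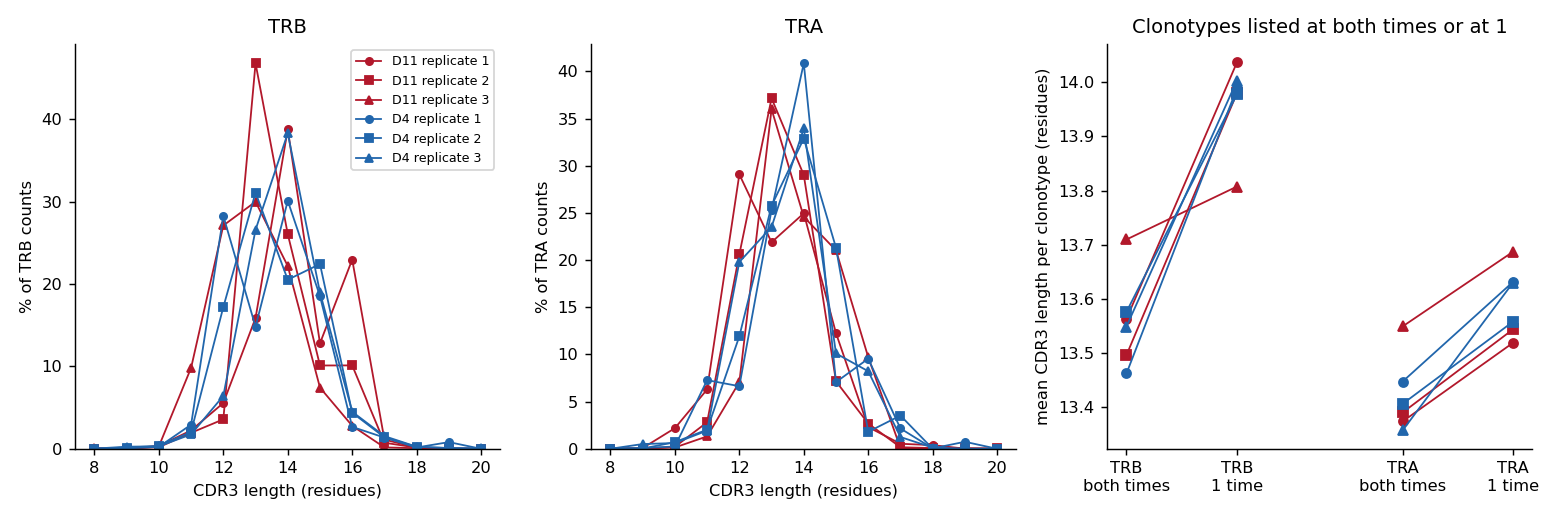
Left and middle, percent of chain counts by CDR3 length (residues) in each D11 (red) and D4 (blue) combination library. Right, mean length per clonotype of those listed at both times and of those listed at 1 time, a line for each library; all lines slope up, most clonotypes of 1 time are in a single library, and the TRB line of D11 replicate 3 rests on 31 both-times clonotypes.

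The segments of these clonotypes were also those of the wider repertoire, with some used more. TRBV16 made up 21.1% of the TRB clonotypes found at both times and 12.6% of all TRB clonotypes of the 6 libraries. TRAJ22 made up 15.4% of the TRA clonotypes found at both times and 6.68% of all. TRAV7D-2 made up 10.3% and 6.28%. These shares are descriptions without a test.

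Large clonotypes were mostly private to a library. Of 68 TRB clonotypes that reached 1% in a combination library, 59 were listed in no other of the 6 libraries and 6 were listed on both days. Of 85 TRA clonotypes of that size, 57 were in 1 library and 19 were listed on both days. Of these, 2 TRB and 3 TRA clonotypes reached 1% in a library of each day. The CDR3 of 3 of them follow, since these are the large clonotypes that both times have in common.
TRBV16 with TRBJ2-5: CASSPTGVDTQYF
TRBV13-2 with TRBJ1-1: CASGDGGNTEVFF
TRAV12D-2 with TRAJ48: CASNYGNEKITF
The other 2 join TRAV7D-2 with TRAJ37 in CDR3 loops of 14 residues.

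The TRBV16 clonotype held 8.39% in D11 replicate 2, against 5.27% in D4 replicate 3, and was listed at 0 in the other 4 combination libraries. It also held 2.72% in control D4 replicate 1. The TRBV13-2 clonotype was spread more widely, with 1.01%, 0.158% and 0 at D11, against 1.99%, 0.119% and 0.207% at D4, and it was listed in 10 of the 17 libraries of the other treatments. TRBV13-2 belongs to the mouse Vbeta8 family. The TRAV12D-2 clonotype, the largest of D11 replicate 1, held 16.2%, 0 and 0 at D11, against 0.00356%, 0 and 2.06% at D4. A clonotype of several percent on a day could thus be at 0 in the other libraries of the same day.

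The pair of TRAV7D-2 clonotypes differ by G5R, from the first clonotype to the second, counted from 1 at the first residue of the CDR3. The first held 1.58%, 0.226% and 0 at D11, against 0, 6.21% and 0.0221% at D4, and the second held 0, 1.67% and 0 at D11, against 0.00332%, 4.92% and 0.00168% at D4. Each was also listed in 5 libraries of other treatments, the first at up to 6.53% in BGB-283 D4 replicate 3 and the second at up to 3.37% in control D4 replicate 3. Both were therefore high in libraries of several treatments and both were highest at D4 among combination libraries.

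A recurrent alpha clonotype was lower in every D11 library than in any D4 library. TRAV12N-3 with TRAJ11, CDR3 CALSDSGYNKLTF, held 0, 0.0772% and 0.243% at D11, against 7.21%, 3.12% and 0.704% at D4. It was chosen for description after its values were seen, so no test is given, and it was listed in 9 libraries of other treatments at up to 5.30%. Another clonotype chosen in the same way, TRAV7D-3 with TRAJ21 and CDR3 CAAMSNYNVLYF, held 0.0474%, 0.0234% and 0.378% at D11, against 0, 0.0456% and 6.86% at D4. Its high value came from D4 replicate 3 alone.

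The largest clonotype of D11 replicate 2 recurred in another library of that day. TRBV3 with TRBJ2-7, CDR3 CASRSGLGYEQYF, held 4.51%, 21.6% and 0 at D11 and was listed at 0 in all D4 combination libraries. It held 13.0% in BGB-283 D4 replicate 3 and was in no other of the 23 libraries. An alpha clonotype with a like distribution, chosen after its values were seen, was TRAV4N-3 with TRAJ12, CDR3 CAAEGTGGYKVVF. It held 1.78%, 8.54% and 0 at D11 and 0 in all D4 combination libraries, with 3.08% in BGB-283 D4 replicate 3 and 0.711% in BGB-283 D11 replicate 2. D11 replicate 2 and BGB-283 D4 replicate 3 shared 43 TRB clonotypes, the most of any pair of a combination library with a library of another treatment, where the median was 11.5. Combination D4 replicate 2 and trametinib D4 replicate 3 shared 41. These numbers were not brought to equal counts. Whether RNA or reads passed between libraries was not tested.

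In TRA, 3 clonotypes were listed in all 6 libraries, and none was in TRB. The first is TRAV11N with TRAJ18, which carries the canonical CDR3 of invariant natural killer T (iNKT) cells, T cells that bind lipids on CD1d. It held 0.651%, 0.534% and 0.377% at D11, against 0.299%, 0.395% and 0.974% at D4. The others use TRAJ22 and share most of their CDR3.
TRAV14-2V14N-2 with TRAJ22: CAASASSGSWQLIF
TRAV8-1V8D-1 with TRAJ22: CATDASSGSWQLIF
The TRAV14-2V14N-2 clonotype held 0.144%, 0.0726% and 0.00521% at D11, against 0.0197%, 0.125% and 0.0672% at D4. The TRAV8-1V8D-1 clonotype held 0.0858%, 0.0183% and 0.0125% at D11, against 0.046%, 0.0376% and 0.0948% at D4. Neither separated the days, and both were also in other treatments, in 14 and in 7 of the 17 libraries.

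Alpha chains of semi-invariant T cells, and all beta chains of the Vbeta8 family, were summed as lists. TRAV11 chains joined to TRAJ18 made up 0.972%, 0.652% and 0.427% of TRA counts at D11, against 0.317%, 0.425% and 1.13% at D4, so the days overlapped. Chains of mucosal-associated invariant T cells, TRAV1 with TRAJ33, were listed at 0 in all 3 D11 libraries, against 0, 18 and 116 counts at D4. At these depths 3 counts are the lowest value listed. The Vbeta8 family (TRBV13 segments), which many iNKT cells use, made up 22.4%, 6.19% and 3.36% of TRB counts at D11, against 13.2%, 12.9% and 11.1% at D4. The D4 libraries lay close together and the D11 libraries lay on both sides of them. The largest clonotype of D11 replicate 1 uses TRBV13-2 and held 13.8% of its TRB counts.

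V and J segment use was compared between D11 and D4 by summing the counts of each segment and applying the quasi-likelihood test of edgeR, with Benjamini-Hochberg adjustment within each family. No segment passed an adjusted p of 0.05 among 24 TRBV, 12 TRBJ, 118 TRAV and 41 TRAJ segments tested (percent called 0 in each). At an unadjusted p under 0.05 there were 3 TRBV, 0 TRBJ, 5 TRAV and 5 TRAJ segments. DESeq2 called TRBV19, TRAV20 and TRAJ39, 1 each of the 24 TRBV, 118 TRAV and 41 TRAJ segments entered, and no TRBJ segment. Segments to which it gave no adjusted p count as not called. TRAV20 was at 0 in all D11 libraries and at 0.00119%, 0.00972% and 0 of TRA counts at D4. TRBV19 and TRAJ39 were highest in D11 replicate 3, where single clonotypes with them held 24.1% and 28.4% of chain counts. The median log2 difference of all segments was -0.37 in TRBV, -0.18 in TRBJ, -0.09 in TRAV and -0.29 in TRAJ. With the size factors of DESeq2 it was 0.25 in TRBV, 0.01 in TRBJ and -0.38 in TRAV, and with TMM it was -0.20 in TRBV and 0.08 in TRBJ, so the direction of segments with small differences depends on the scaling. A test of whether the change differed from the mean change of the other 3 treatments also called 0 segments with edgeR in all 4 families, with 5 TRBV, 2 TRBJ, 9 TRAV and 6 TRAJ segments at an unadjusted p under 0.05.

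For 3 against 3 libraries that do not differ, a segment fails to overlap with a probability of 0.1, ties aside. The shares of segments that did not overlap, here and below, were not tested against it. Among TRBV segments 4 did not overlap between the days (16.7%), all lower at D11, and the others overlapped. TRBV20, with the smallest p, made up 0.764%, 0.512% and 0.352% at D11, against 2.5%, 2.82% and 0.945% at D4 (log2 -1.94 ± 0.83 SE, adjusted p = 0.225, edgeR). TRBV12-2 made up 2.62%, 2.09% and 2.06% at D11, against 13.8%, 4.10% and 4.01% at D4 (log2 -1.69 ± 0.75 SE, adjusted p = 0.225, edgeR). A single clonotype held 8.46% of TRB counts in D4 replicate 1, and the log2 difference was -0.85 without that library. The 2 others, TRBV1 and TRBV13-3, were named only because they complete this count. Counted by distinct clonotype, the days overlapped for TRBV1, TRBV12-2 and TRBV20. TRBV13-3 still did not overlap, with 2.66%, 3.07% and 2.05% of TRB clonotypes at D11, against 3.32%, 3.27% and 3.44% at D4.

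Large single clonotypes were part of the high values of the most used TRBV segments. TRBV19 (Vbeta6) made up 11.1%, 6.63% and 40.5% at D11, against 3.89%, 12.3% and 5.84% at D4 (log2 1.40 ± 0.70 SE, adjusted p = 0.225, edgeR). A single clonotype held 24.1% of TRB counts in D11 replicate 3, and the log2 difference was 0.27 without that library. TRBV3 made up 9.87%, 35.5% and 10.9% at D11, against 5.76%, 7.02% and 13.1% at D4 (log2 1.12 ± 0.70 SE, adjusted p = 0.322, edgeR). Its 2 largest clonotypes in D11 replicate 2 held 21.6% and 8.32%, and the log2 difference was 0.27 without that library. TRBV16 (Vbeta11) made up 8.12%, 17.6% and 9.94% at D11, against 22.1%, 7.50% and 12.2% at D4, with 15.0% from 1 clonotype in D4 replicate 1. TRBV23 made up 9.17% in D11 replicate 3, with 8.81% of TRB counts in 1 clonotype, and at most 0.394% in the other libraries, and its log2 difference of 4.10 turned to -0.64 without that library.

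Counted by distinct clonotype, segment use varied less between libraries of a day. The median coefficient of variation within a day was 0.598 by counts and 0.167 by clonotypes over TRBV segments, and 0.432 and 0.0650 over TRBJ segments. With each clonotype counted once, the log2 difference of TRBV3 was 0.00 and that of TRBV19 was 0.35 (adjusted p = 0.993 and 0.24, edgeR). The values by clonotype carry no test of equality between days.

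TRBJ segments all overlapped between the days (0 of 12 apart, 0%). TRBJ1-1 made up 6.57%, 5.21% and 36.0% at D11, against 6.91%, 11.4% and 5.46% at D4 (log2 1.01 ± 0.65 SE, adjusted p = 0.909, edgeR). The high value holds the 24.1% clonotype of D11 replicate 3, and the log2 difference was -0.43 without that library. TRBJ2-7, the most used, made up 20.5%, 31.6% and 14.0% at D11, against 32.5%, 32.1% and 13.0% at D4. TRBJ2-5 made up 12.4%, 25.4% and 12.4% at D11, against 18.1%, 10.8% and 25.6% at D4, and TRBJ2-3 made up 18.4%, 12.1% and 2.25% at D11, against 13.0%, 8.26% and 18.2% at D4. None of these 3 kept its direction under every scaling, way of counting and left-out library tried.

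Among TRAV segments 16 did not overlap between the days (13.6%), 7 higher and 9 lower at D11. The smallest p belonged to TRAV6N-7, which made up 5.94%, 5.28% and 12.6% at D11, against 1.70%, 0.788% and 0.902% at D4 (log2 2.81 ± 1.02 SE, adjusted p = 0.606, edgeR). All 3 D11 libraries lay above all D4 libraries, and leaving out any 1 library left the log2 difference between 2.31 and 3.23. In each D11 library a different TRAV6N-7 clonotype held most of it, none of which was in any other of the 23 libraries. They held 4.91%, 3.71% and 11.8% of TRA counts, while the largest TRAV6N-7 clonotypes of the D4 libraries held 0.639%, 0.331% and 0.201%. The CDR3 of the first and second are shown because they show how unlike the clonotypes are, and that of D11 replicate 3, with TRAJ27, is 15 residues long.
D11 replicate 1, TRAV6N-7 with TRAJ17: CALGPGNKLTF
D11 replicate 2, TRAV6N-7 with TRAJ34: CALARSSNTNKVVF

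Counted by distinct clonotype, TRAV6N-7 made up 2.69%, 2.87% and 5.37% of TRA clonotypes at D11, against 2.26%, 1.63% and 1.92% at D4. The days did not overlap here either, though the test with each clonotype counted once did not pass (log2 0.86, adjusted p = 0.247, edgeR). TRAV6D-5V6N-5 was also among the 3 smallest p-values and made up 6.60%, 1.34% and 29.3% at D11, against 1.42%, 1.32% and 2.68% at D4 (log2 2.78 ± 1.06 SE, adjusted p = 0.606, edgeR). Its share in D11 replicate 3 was almost all 1 clonotype, at 28.4%, and the log2 difference was 1.14 without that library. TRAV7N-6 made up 0.248%, 8.68% and 0.219% at D11, against 0.259%, 0.179% and 0.293% at D4, a difference of D11 replicate 2 alone.

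The TRAV6 family as a whole was looked at after these values were seen. It made up 14.9%, 18.95% and 44.5% of TRA counts at D11, against 8.84%, 5.58% and 5.80% at D4. It was 1 of 3 TRAV families out of 21 whose days did not overlap (14.3%), with TRAV19 and TRAV21. Without the largest TRAV6 clonotype of each library the family held 10.01%, 8.74% and 16.1% at D11, against 4.97%, 4.68% and 5.34% at D4. These D11 values still include another large TRAV6 clonotype each, of 1.93%, 3.71% and 11.8%. TRAV6 clonotypes of 1% or more numbered 2, 2 and 2 at D11, against 1, 0 and 0 at D4. Whether the family rose beyond these large clonotypes was not tested. By distinct clonotype it made up 12.6%, 11.7% and 15.2% at D11, against 11.03%, 9.74% and 10.1% at D4. In the other treatments the family made up 7.37% to 9.24% at D11 against 3.35% to 15.5% at D4 for trametinib, 6.73% to 31.8% against 3.47% to 8.75% for BGB-283, and 11.4% and 20.8% against 5.94% to 11.2% for control. The control libraries of the 2 days did not overlap either, and the difference between treatments was not tested. TRAV6 copies are alike in sequence, so the split between TRAV6N-7 and its relatives depends on how the caller assigned them.

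The other 2 of the 3 most used TRAV segments over the 6 libraries belong to the TRAV7 family. TRAV7D-2 made up 6.05%, 12.8% and 4.33% at D11, against 11.3%, 22.0% and 11.99% at D4 (log2 -0.96 ± 0.82 SE, adjusted p = 0.978, edgeR). TRAV7D-3 made up 1.08%, 11.4% and 2.16% at D11, against 7.35%, 2.92% and 10.7% at D4. The log2 difference of TRAV7D-2 was -0.59 without D4 replicate 2 and -1.54 without D11 replicate 2. Both overlapped between the days, and the 11.4% included a clonotype of 9.70%.

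Of the 41 TRAJ segments 6 did not overlap (14.6%), 1 higher and 5 lower at D11. TRAJ38 made up 0.570%, 0.481% and 0.173% at D11, against 3.48%, 4.28% and 1.35% at D4 (log2 -2.90 ± 1.26 SE, adjusted p = 0.336, edgeR), where single clonotypes held 3.30% and 4.03% in D4 replicates 1 and 2. TRAJ21 made up 2.71%, 4.81% and 2.13% at D11, against 9.77%, 5.85% and 10.5% at D4 (log2 -1.44 ± 0.76 SE, adjusted p = 0.413, edgeR). TRAJ48 made up 17.8%, 11.1% and 0.0807% at D11, against 0.492%, 0.477% and 2.75% at D4 (log2 2.96 ± 1.30 SE, adjusted p = 0.336, edgeR). The 2 D11 libraries high in TRAJ48 had it mostly in their largest TRA clonotype, at 16.2% and 10.2%. TRAJ39 made up 29.4% in D11 replicate 3 and between 1.17% and 1.61% in the other 5 libraries, and its log2 difference of 2.92 turned to -0.07 without that library.

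**Figure D5:**
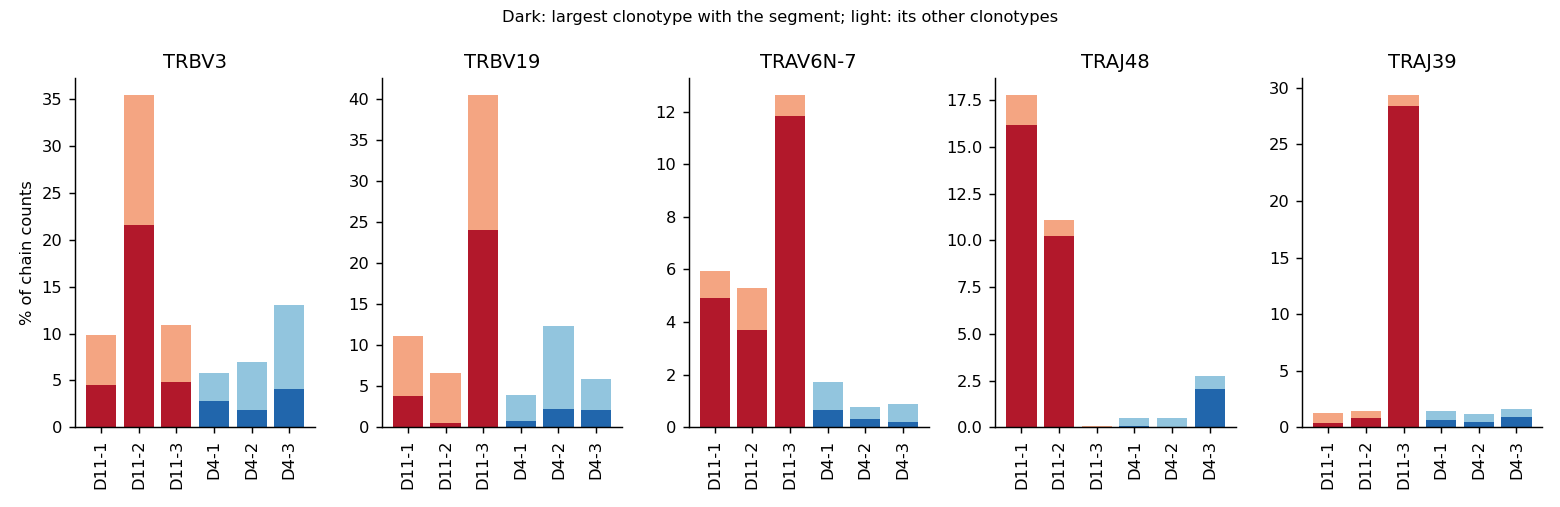
Share of chain counts (%, y axes of different height) taken by 5 segments in the D11 (red) and D4 (blue) combination libraries, replicates 1 to 3. The dark part is the largest clonotype with that segment and the light part all its other clonotypes; TRAV6N-7 is high in all 3 D11 libraries, and TRAJ39 in D11 replicate 3 alone.

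CDR3 length was compared by counts and by clonotype. Weighted by counts, the mean TRB CDR3 was 14.3, 13.7 and 13.0 residues long at D11, against 13.5, 13.6 and 13.8 at D4 (difference 0.0136, p = 1, exact permutation test). The D11 libraries lay on both sides of the D4 libraries. In D11 replicate 1, loops of 16 residues held 22.98% of TRB counts, and 1 TRBV29 clonotype of that length held 13.4% of TRB counts. In D11 replicate 3, loops of 12 residues or fewer held 37.3%, with 24.1% in its TRBV19 clonotype of 12 residues and 8.81% in a TRBV23 clonotype of 11. Averaged per clonotype the lengths lay closer, at 14.0, 14.0 and 13.8 residues at D11, against 14.0 in each D4 library (difference -0.0506, p = 0.7, adjusted p = 0.853, exact permutation test).

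The TRA CDR3 weighted by counts was 13.1, 13.3 and 13.9 residues long at D11, against 13.7, 13.8 and 13.6 at D4 (difference -0.282, p = 0.4, adjusted p = 0.582, exact permutation test). The difference was -0.135 without D11 replicate 1 and -0.505 without D11 replicate 3. Per clonotype it was 13.5, 13.5 and 13.7 at D11, against 13.6, 13.5 and 13.6 at D4. In D11 replicate 1, loops of 12 residues or fewer held 37.7% of TRA counts, with 16.2% in its largest clonotype of 12 residues.

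The centre of the loop, the residues left after 4 were removed at each end, was described by charge and hydropathy on the Kyte-Doolittle scale, where higher values are more hydrophobic. Per TRB clonotype the mean hydropathy was -0.940, -0.951 and -0.9997 at D11, against -1.02, -0.982 and -0.984 at D4, and the mean charge was -0.318, -0.344 and -0.290 at D11, against -0.351, -0.298 and -0.329 at D4. Both overlapped between the days. Weighted by counts, TRB hydropathy spread from -1.44 to -0.730 at D11, against -1.14 to -0.893 at D4. In TRA the hydropathy per clonotype ran from -1.25 to -1.15 at D11, against -1.22 to -1.18 at D4.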

How the data were processed

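Libraries were made from total RNA with the QIAseq Immune Repertoire RNA kit, per the labels. The authors deposited unscaled counts for each combination of chain, V, J and CDR3. A human build, GRCh38, is named in the submitters' processing notes. Caller and filters: not given in the sources used here. Of the entries, 274 with an unresolved CDR3 residue were left out.

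Members and lists were chosen with earlier results of these data known. Clonality is 1 minus the Shannon entropy divided by its maximum. This index and clonotype numbers at equal counts are means of 100 seeded draws. Clonotype numbers and counts were tested as log2. Segment counts of all 23 libraries (8 groups) were fitted with edgeR 4.0.16 after filterByExpr, with the chain total as library size and TMM off; the standard error is the log2 difference over the square root of F. DESeq2 1.42.0 was an alternative. The fits were tested on simulated data.

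Named were segments with an adjusted p under 0.05 or else the 3 smallest p in a family, the 3 most used, the largest clonotype of each library, clonotypes at both times and those in all 6 libraries. Segment names were those of the table. In the mouse annotation 24 of 24 TRBV and 12 of 12 TRBJ names were found, as were 64 of 143 TRAV names and 41 of 41 TRAJ names; those not found are mostly joint names. Values of 0 are below what the table lists. Intervals are not given, since reads of a molecule are not independent.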

Additional observations from a re-analysis of the deposited data

How the results depend on the processing

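Under no alternative did any of the 16 measures of D11 against D4 pass (lowest adjusted p 0.229, exact permutation test; 3 against 3 libraries allow no p under 0.1). Clonotypes found at both times numbered 237 in TRB and 553 in TRA, 69 and 256 with counts under 20 set to 0, and 589 and 1152 by CDR3 alone. Leaving out a library gave 100 to 214 and 258 to 489; without D11 replicate 2 they were 100 and 258, and without D4 replicate 2 they were 134 and 356. The cause of the turned signs below was not tested. TRB CDR3 length fell by 0.0228 residues in estimated molecules (count divided by 20, rounded up), with -0.294 to 0.351 over left-out libraries. The TRA CDR3 length change minus that of BGB-283 was -0.0014 with counts under 20 set to 0 and -0.215 to 0.156 over left-out libraries. DESeq2 called 1 of 24 TRBV, 1 of 118 TRAV and 1 of 41 TRAJ segments entered with time. It called 2 TRBV, 9 TRAV and 3 TRAJ segments in the difference from the other treatments. TRAV20, at 0 in all D11 combination libraries, was called in both. With each clonotype counted once, 1 TRBV (TRBV17) and 1 TRBJ (TRBJ2-5) segment were called in that difference. Log2 differences turned for TRBV16 (0.65 with DESeq2, 0.12 with each clonotype once), TRBJ2-7 (0.054 with TMM), TRBJ2-5 (0.28 with TMM, 0.12 with DESeq2, 0.068 with each clonotype once) and TRBJ2-3 (0.021 with each clonotype once).

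Over left-out libraries the ranges that crossed 0 were -0.0781 to 0.00598 for TRA and -0.0965 to 0.0119 for TRB CDR3 length per clonotype, and -0.0110 to 0.0626 for TRA clonality. For changes minus those of BGB-283 they were -0.713 to 0.162 for TRB clonotypes at equal counts, -0.580 to 0.0649 for TRB CDR3 length, -0.00241 to 0.0712 for TRA clonality and -2.28 to 8.98 points for the 10 largest TRA clonotypes. The TRB CDR3 length change minus that of trametinib ran from -0.219 to 0.427. For segments they were -0.64 to 5.33 for TRBV23, -0.63 to 0.27 for TRBV16, -0.43 to 1.42 for TRBJ1-1, -0.24 to 0.88 for TRBJ2-1, -0.58 to 0.0123 for TRBJ2-7, -0.55 to 0.21 for TRBJ2-5, -0.88 to 0.21 for TRBJ2-3, -0.0625 to 4.19 for TRAV7N-6 and -0.0734 to 3.44 for TRAJ39.

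Same-numbered D11 and D4 libraries correlated at -0.120, 0.0283 and -0.0553 over 137 segments, so the numbers were not taken as pairs. With a replicate block no call changed. The TRB 10 largest clonotypes differed by 13.8 points (p = 0.5, adjusted p = 0.727, exact sign-flip test). On 3 pairs the sign-flip test cannot give a p under 0.05, so no measure of D11 against D4 could pass with it. Estimated TRB molecules were 8725 and 9857 in D11 replicates 1 and 3, against 13893 to 18368 in the other 4 combination libraries. Estimated TRA molecules were 8036 and 10033 in D11 replicates 1 and 3, against 21557 to 28653 in the other 4. The part of these differences in the clonotype numbers was not tested.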
